A study of Mus musculus with 16 samples.

Results

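A set of 10 genes of the early embryo was followed through the cardiac region of Greb1l mutant and control mouse embryos. They are the pluripotency genes Pou5f1, Nanog, Utf1, Tfcp2l1 and Zfp42, the threonine dehydrogenase gene Tdh, the primitive streak genes Mixl1 and Eomes, and the RNA-binding protein genes Lin28a and Lin28b. The rows that carry these 10 symbols were read in both deposited tables, each of which lists 48526 genes. The dissected cardiac region of 16 single embryos, staged as embryonic day 8.5 and all on the C57BL/6J background, gave 1 RNA library each. Line G3 gave 4 embryos labelled mutant (genotype Greb1lem1Cjean/em1Cjean) and 4 controls. Line G17 gave 4 mutants (genotype Greb1lex17/ex17) and 4 controls. The controls of both lines are labelled wild-type littermates, and mutants and controls share no other allele or treatment in the labels. A number after a group name is the embryo's own number.

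Pluripotency is held by a network of transcription factors around POU5F1 (OCT4), SOX2 and NANOG, which is active in the inner cell mass and the epiblast and is shut down as the germ layers form. POU5F1 lasts through gastrulation and then persists in primordial germ cells. MIXL1 and EOMES act in the primitive streak, where epiblast cells become mesoderm and endoderm. The LIN28 proteins block maturation of the let-7 microRNAs and stay abundant in the embryo well after gastrulation.

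Libraries held 32391421 to 49353025 reads counted in genes, and 3 reads, which a count of 0 allows, are worth 2.53 to 3.84 normalized reads, a limit on counting error only. Normalized reads are reads divided by the embryo's size factor within its line. Greb1l itself averaged 20144 ± 3377 in G3 embryos labelled mutant and 10984 ± 1319 in G3 controls (SD, n = 4 each), a log2 fold change of 0.87 ± 0.11 (SE, limma adjusted p = 0.000824). It averaged 4215 ± 961 in G17 mutants and 9818 ± 508 in G17 controls (-1.25 ± 0.13, limma adjusted p = 0.000288). Less Greb1l RNA thus marked the G17 mutants but not the G3 libraries labelled mutant, and every direction given for G3 rests on the labels. Cardiac markers (Nkx2-5, Tnnt2, Myl7 and 7 others) were abundant in every embryo, and 0 of 10 were called in either line. Over all genes tested 2.35% rose and 1.63% fell in G3, and 1.87% and 1.16% in G17. In a fit of both lines with the line as a term, Tbx5 alone of the 10 rose. There 8 of the 10 had a positive fold change (median log2 0.21), against a median of 0.00 over all genes. In the sum of 10 trophoblast markers, G3 control 18 stood apart at 30473 normalized reads, against 3435 to 12757 in the other embryos. Hand1 was the largest part of this sum, with group means of 4802 of 5501 in G17 mutants and 6478 of 7247 in G17 controls. In G3 they were 4875 of 5863 in embryos labelled mutant and 5770 of 10869 in controls. The sum of 12 yolk sac endoderm markers ranged most, and was highest in G17 control 29 at 269874. Nothing in the labels says that embryos of a group came from separate litters, so p-values measure the spread between these embryos.

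The promoters of Pou5f1 and Nanog are shown because these genes were higher in the mutant-labelled embryos of both lines. Each is 300 bases from RefSeq on GRCm38.p6, from 250 before to 50 after a transcript start, 5′ to 3′ on the gene's strand. Of the 10 genes, 8 have an entry, and Pou5f1 and Nanog have 2 each, of which one is printed. Capitals mark letters that a search of both strands found. In Pou5f1 (chr17:35505782-35506081, plus strand) they are a GC box, GGGCGG, at -45 to -40 from the start and a nuclear receptor half-site, AGGTCA, at -33 to -28. In Nanog (chr6:122707239-122707538, plus strand) the first run is the half-site read on the opposite strand, at -248 to -243, and the second is a composite of the octamer core, read on the opposite strand, and the SOX core, 1 base apart, at -75 to -62. The Pou5f1 entry not printed held neither the GC box nor the half-site, but a SOX core at -158 to -153 from its own start. The Nanog entry not printed held the composite but not the half-site.
Pou5f1 promoter: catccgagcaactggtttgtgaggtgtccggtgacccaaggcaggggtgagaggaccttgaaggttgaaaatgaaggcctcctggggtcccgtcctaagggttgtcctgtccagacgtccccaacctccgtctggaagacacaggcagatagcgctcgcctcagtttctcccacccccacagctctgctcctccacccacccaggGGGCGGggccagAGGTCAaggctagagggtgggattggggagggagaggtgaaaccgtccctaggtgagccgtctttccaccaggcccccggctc
Nanog promoter: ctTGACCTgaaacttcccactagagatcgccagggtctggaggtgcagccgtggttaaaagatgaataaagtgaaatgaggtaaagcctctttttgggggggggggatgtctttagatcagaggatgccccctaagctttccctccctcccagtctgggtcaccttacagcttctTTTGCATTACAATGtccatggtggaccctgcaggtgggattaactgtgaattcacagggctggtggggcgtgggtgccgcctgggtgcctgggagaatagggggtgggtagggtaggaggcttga
Of 32851 promoters searched, 35.7% hold the GC box, 16.3% the half-site, 4.63% the octamer core ATGCAAA and 12.6% the SOX core ACAATG, both cores lying inside the composite. The composite was found in 2 promoters of the table, which are the overlapping Nanog entries. These are matches of letters, not measured binding.

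Per length, as reads scaled to exon length and library total (RPKM), Lin28a was the highest of the 10 genes in each group, with means of 216 in G3 embryos labelled mutant, 231 in G3 controls, 191 in G17 mutants and 220.1 in G17 controls. Pou5f1 ranked second in both mutant groups, at 16.8 ± 6.56 in G3 and 29.1 ± 12.3 in G17 (SD, n = 4 each). In the controls it was the fourth, at 5.06 ± 0.958 in G3 and 2.68 ± 0.872 in G17. Lin28b lay between 14.3 and 17.2 in the group means, within the spread of Pou5f1 in G3 embryos labelled mutant. Nanog was far lower, at 1.71 ± 1.203 and 0.146 ± 0.0832 in G3 embryos labelled mutant and controls, and 2.30 ± 1.72 and 0.0174 ± 0.0163 in G17 mutants and controls. Mixl1, Eomes and Zfp42 had group means of at most 0.717, and changed places between groups.

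**Figure D1:**
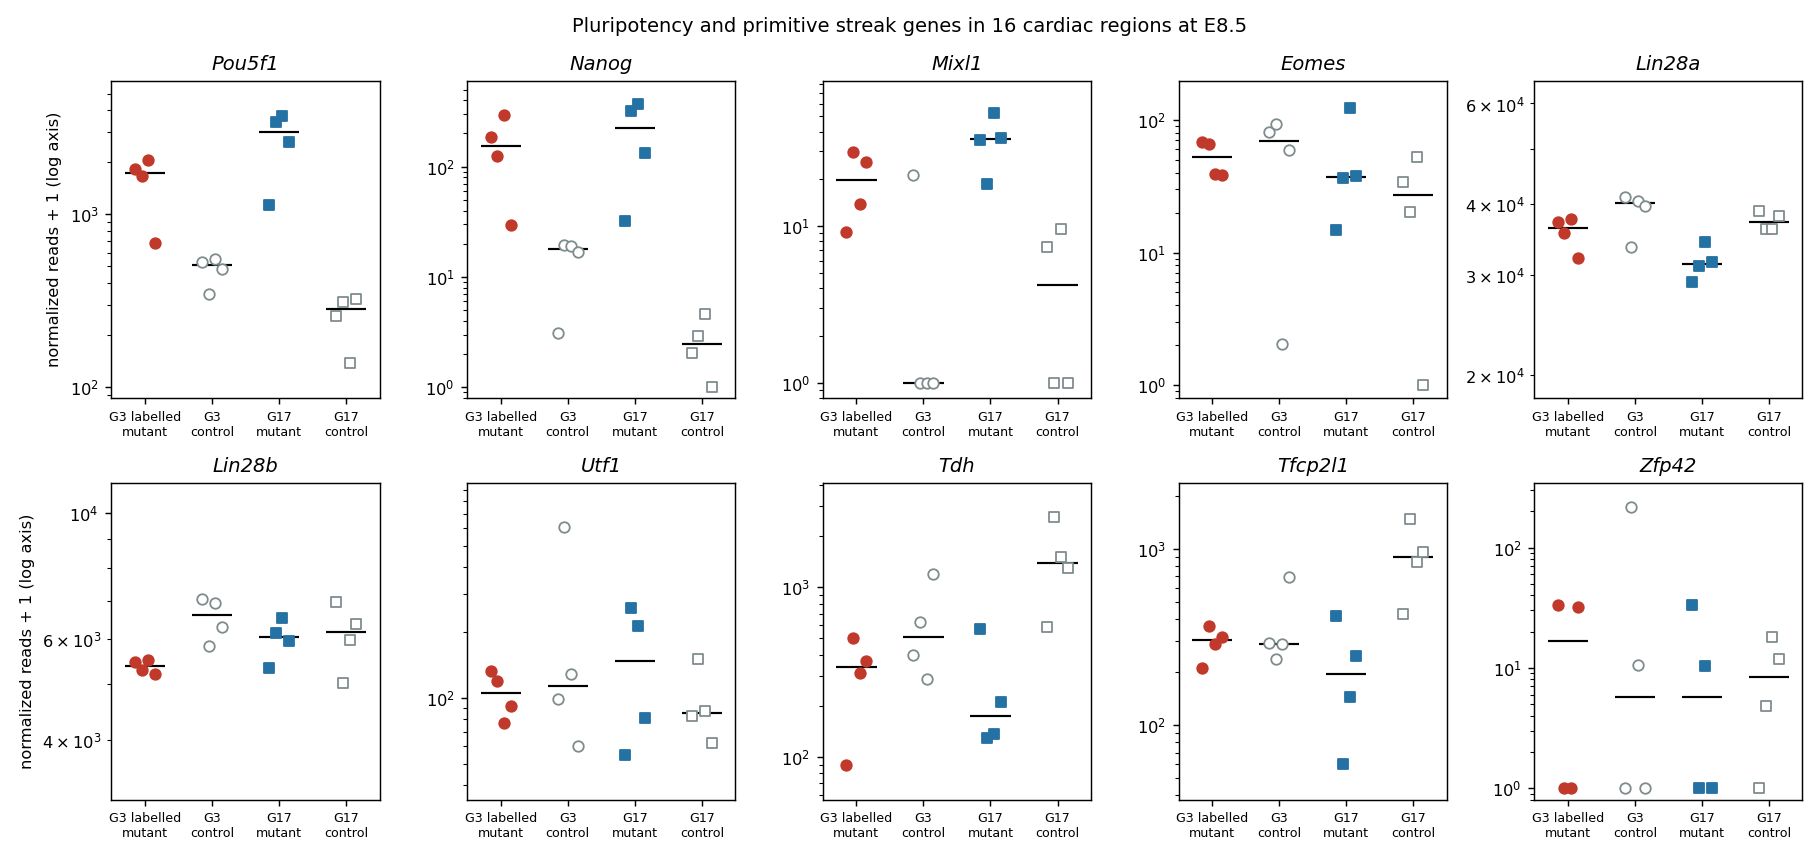
Normalized reads + 1 of the 10 genes (vertical log axes, each panel with its own range) in each of 16 embryos, by group, with filled symbols for mutant-labelled embryos, open symbols for controls and a line at each group median. Mutant-labelled embryos lie above all controls of their line for Pou5f1 and Nanog, and the G17 mutants lie below all G17 controls for Lin28a, Tdh and Tfcp2l1.

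Pou5f1 was higher in every mutant-labelled embryo of both lines. The gene (ENSMUSG00000024406) lies at 35506018 to 35510772 on chromosome 17 of GRCm38, plus strand. G3 embryos labelled mutant held 1821 (embryo 23), 1664 (29), 2074 (30) and 683 (31) normalized reads, against 530.3 (16), 347 (18), 551 (20) and 479.6 (21) in G3 controls. G17 mutants held 1132 (33), 3403 (36), 3689 (41) and 2603 (42), against 256 (20), 308 (29), 138 (35) and 323 (37) in G17 controls. Embryo 31 of G3 and embryo 33 of G17 were the low ones among the mutants, and the groups did not overlap. The log2 fold change of mutant over control was 1.61 ± 0.29 in G3 (limma adjusted p = 0.00765) and 3.34 ± 0.35 in G17 (limma adjusted p = 0.000332), where ± is the SE. Over both lines with the line as a term, which is called the common effect below, it was 2.48 ± 0.31 (limma adjusted p = 1.97e-05). An exact two-sided permutation test gave p = 0.0286 in each line, the smallest that 4 against 4 embryos allow. The call held without any 1 embryo, where the fold change lay between 1.44 and 1.97 in G3 and between 3.06 and 3.71 in G17. An antisense gene, Gm19553, shares 317 exon bases with Pou5f1 and is listed at 0 in all embryos, and the strand setting of the counting is not given in the sources used here. For the same reason reads of Lin28a, Eomes and Tdh in the 234, 118 and 66 exon bases that each shares with a gene on the opposite strand (Gm13061, Gm33460 and Gm17232) cannot be told apart from that gene's.

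Nanog, the homeobox factor that stabilises the pluripotent state, moved the same way from a much lower level. It lies at 122707489 to 122714633 on chromosome 6, plus strand (ENSMUSG00000012396). G3 embryos labelled mutant held 184 (embryo 23), 125 (29), 296 (30) and 28.8 (31) normalized reads, against 2.12 (16), 18.6 (18), 18.03 (20) and 15.96 (21) in G3 controls. G17 mutants held 31.4 (33), 318 (36), 372 (41) and 132 (42), against 1.06 (20), 1.91 (29), 3.65 (35) and 0 (37) in G17 controls. Mutant-labelled and control embryos were apart in both lines, and the embryos lowest in Pou5f1, 31 of G3 and 33 of G17, were again the lowest mutants. Summed over embryos, G17 mutants gave 948 reads and G17 controls 6, a ratio of 135 after size factors with an exact 95% counting interval of 61.8 to 369. In G3 the sums were 583 reads in embryos labelled mutant and 58 in controls, a ratio of 10.4 (7.95 to 13.9). Both intervals cover counting error of the pooled reads and leave out the spread between embryos. The fitted log2 fold changes were 3.34 ± 0.82 in G3 (limma adjusted p = 0.0401), 6.03 ± 1.02 in G17 (limma adjusted p = 0.00768) and 4.68 ± 0.71 in common (limma adjusted p = 0.000168). With at most 3 reads in a G17 control, the G17 value depends on the pseudocount of 1, and the gene passed the filter on low values there through the mutants alone. The G3 call ended in 6 of the 8 fits without 1 embryo, those without controls 16, 20 or 21 or mutants 23, 29 or 30, with fold changes between 2.70 and 4.01 over all 8. The G17 call held in all 8.

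Some markers of gut endoderm and of the neural tube were also higher in mutant-labelled embryos, while others had lower means in G17 mutants. Of 10 gut endoderm markers, 3 rose in G3 (Cdh1, Epcam, Sox17), 1 in G17 (Epcam) and 1 in common (Epcam), and 0 fell. Over all genes tested 2.35% rose in G3, 1.87% in G17 and 5.01% in common. Of the 10, 8 had a positive fold change in G3 (median log2 0.26) and 4 in G17 (median -0.07). Krt8 averaged 12437 ± 3134 in G17 mutants and 20464 ± 8659 in G17 controls (SD, n = 4 each). Epcam, an epithelial adhesion gene that pluripotent cells also express, held 4367 to 4628 normalized reads in G3 embryos labelled mutant and 2478 to 3367 in G3 controls (0.68 ± 0.09, limma adjusted p = 0.00101), and 4136 to 4523 in G17 mutants and 2600 to 3427 in G17 controls (0.56 ± 0.10, limma adjusted p = 0.00825). Of 8 neural tube markers, Sox1, a transcription factor gene of the early neural plate, rose in G3 (0.49 ± 0.11, limma adjusted p = 0.0216), in G17 (0.81 ± 0.15, limma adjusted p = 0.0126) and in common, and 0 fell. Of these 8, 6 had a positive fold change in G3 and 5 in G17. Pax6 averaged 2403 ± 374 in G17 mutants and 3185 ± 578 in G17 controls. Epcam and Sox1 did not overlap between the groups of either line, and the G3 call of Sox1 ended in 4 of 8 fits without 1 embryo and that in G17 in 1 of 8. The summed gut endoderm markers did overlap, at 44477 to 51041 in G3 embryos labelled mutant and 40134 to 47431 in G3 controls, and 35654 to 51680 in G17 mutants and 40100.5 to 79792 in G17 controls. So did the summed neural tube markers, at 15027 to 20896 in G3 embryos labelled mutant and 15873 to 17811 in G3 controls, and 14406 to 19667 in G17 mutants and 12106 to 18644 in G17 controls. The part of these markers in the values of Pou5f1 and Nanog was not tested.

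The streak genes were low in all groups. Mixl1, a homeobox gene of the primitive streak and its mesendoderm, had 8.12 (embryo 23), 28.4 (29), 12.8 (30) and 24.5 (31) normalized reads in G3 embryos labelled mutant, against 20.2 in G3 control 16 and 0 in controls 18, 20 and 21. It had 34.2 (33), 17.6 (36), 51.5 (41) and 35.5 (42) in G17 mutants, against 6.37 (20), 0 (29), 8.52 (35) and 0 (37) in G17 controls. The groups overlapped in G3 through control 16 and did not overlap in G17. Neither line passed the test (3.03 ± 1.41, limma adjusted p = 0.277 in G3 and 3.53 ± 1.23, limma adjusted p = 0.16 in G17), while the common effect did (3.28 ± 0.79, limma adjusted p = 0.00993). That common call was not made by edgeR (2.52, adjusted p = 0.232), and in G17 the gene passed the filter through the mutants alone. In read sums the ratio was 4.04 in G3 (74 reads in embryos labelled mutant, 19 in controls, exact 95% counting interval 2.42 to 7.09) and 10.1 in G17 (153 and 13 reads, 5.71 to 19.3). All 19 control reads in G3 came from control 16. The intervals cover counting error of the pooled reads and leave out the spread between embryos. Eomes, the T-box factor of streak and trophoblast, ranged over 37.2 to 66.8 normalized reads in G3 embryos labelled mutant and 1.06 to 92.1 in G3 controls, and over 13.9 to 122 in G17 mutants and 0 to 51.1 in G17 controls. It overlapped in both lines and was not called (0.72 ± 1.02 in G3, limma adjusted p = 0.776, and 1.53 ± 1.21 in G17, limma adjusted p = 0.6). The G3 value turned to -0.58 without control 20, which held 1.06 normalized reads, and edgeR gave -0.15 there (adjusted p = 0.967).

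Utf1 and Zfp42 showed no call, and their highest values came from 1 control. Utf1, a chromatin-bound factor of stem cells and epiblast, ranged over 75.6 to 132 normalized reads in G3 embryos labelled mutant, and over 53.6 to 258 in G17 mutants against 60.8 to 150.2 in G17 controls. G3 controls 16, 20 and 21 held 59.1 to 128, and G3 control 18 held 606. Without that embryo the G3 fold change was 0.17 in place of -0.51 ± 0.58 (limma adjusted p = 0.702 with it). Zfp42, the naive-state marker REX1, held 215 in G3 control 18 and 0 to 32.5 in every other embryo of the series. It did not pass the filter in either line, and its common effect was -0.33 ± 1.22 (limma adjusted p = 0.915). G3 control 18 is the library with the high sum of trophoblast markers, with 9435 normalized reads of Plet1 and 5937 of Prl3d1, against at most 662 and 615 in any other embryo. Utf1 and Zfp42 are also known from the extra-embryonic ectoderm of the mouse. The part of those markers in the values of Utf1 and Zfp42 was not tested.

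Tdh and Tfcp2l1 were lower in G17 mutants. Tdh encodes the mitochondrial enzyme that starts threonine breakdown, on which mouse embryonic stem cells depend. G17 mutants held 570.4 (embryo 33), 128 (36), 135 (41) and 210.2 (42) normalized reads, against 585 (20), 2583 (29), 1502 (35) and 1295 (37) in G17 controls. These groups did not overlap, though mutant 33 and control 20 lay next to each other. G3 embryos labelled mutant held 88.5 to 504 and G3 controls 287 to 1191, with overlap. The log2 fold change was -2.61 ± 0.48 in G17 (limma adjusted p = 0.0116), -1.01 ± 0.50 in G3 (limma adjusted p = 0.309) and -1.81 ± 0.42 in common (limma adjusted p = 0.00765).

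Tfcp2l1, a transcription factor of the naive pluripotent state that is also found in epithelia, was likewise lower in all 4 G17 mutants than in the G17 controls. G17 mutants held 414 (embryo 33), 59.4 (36), 144 (41) and 245 (42), against 428 (20), 1489 (29), 839.7 (35) and 968 (37) in G17 controls. G3 embryos labelled mutant held 210.3 to 365 and G3 controls 236 to 693. The groups of G17 again did not overlap, with mutant 33 just below control 20, and those of G3 did. The fold change was -2.30 ± 0.51 in G17 (limma adjusted p = 0.0305), -0.24 ± 0.31 in G3 (limma adjusted p = 0.749) and -1.27 ± 0.40 in common (limma adjusted p = 0.0467). The G17 call ended in 6 of the 8 fits without 1 embryo (-2.72 to -1.79) and the common call in 9 of 16 (-1.43 to -0.96), whereas both calls of Tdh held in all such fits.

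The sum of the 12 yolk sac endoderm markers (Afp, Ttr, Apoa1 and others) was also lower in most G17 mutants than in most G17 controls, but its groups overlapped at the pair next to each other in Tdh and Tfcp2l1. It was 55727 normalized reads in mutant 33 and 10884 to 19815 in the other mutants, against 37661 in control 20 and 109672 to 269874 in the other controls. In G3 it was 7694 to 33124 in embryos labelled mutant and 26320 to 98989 in controls, and embryo 23, lowest in this sum, was also lowest in Tdh and Tfcp2l1 among them. Of the 12 markers, 8 fell in G17, 0 in G3 and 10 in common, against 1.16%, 1.63% and 4.39% of all genes tested. With the mean log2 level of these markers as a term in the fit, Tdh was -0.80 in G17 (limma adjusted p = 0.291) and -0.29 in common (limma adjusted p = 0.624). Tfcp2l1 was -0.47 in G17 (limma adjusted p = 0.824) and 0.02 in common (limma adjusted p = 0.982). With the same term Pou5f1 kept its call in G3 (1.57, limma adjusted p = 0.0482), in G17 (2.65, limma adjusted p = 0.0156) and in common (1.96, limma adjusted p = 0.00273). Nanog kept the common call (3.68, limma adjusted p = 0.0189) but neither line's call (3.07, limma adjusted p = 0.181 in G3 and 4.72, limma adjusted p = 0.256 in G17). Over all genes the term took the G17 calls from 331 to 133 that rose and from 206 to 36 that fell. In common it took them from 1002 to 551 and from 878 to 361. Since most of the term's own markers fell in G17 and in common, the term and the genotype cannot be told apart. This holds for each later use of the term. The part of yolk sac tissue in the values of Tdh and Tfcp2l1 was not tested. In bulk tissue, fewer cells of a type and less RNA per cell cannot be told apart.

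**Figure D2:**
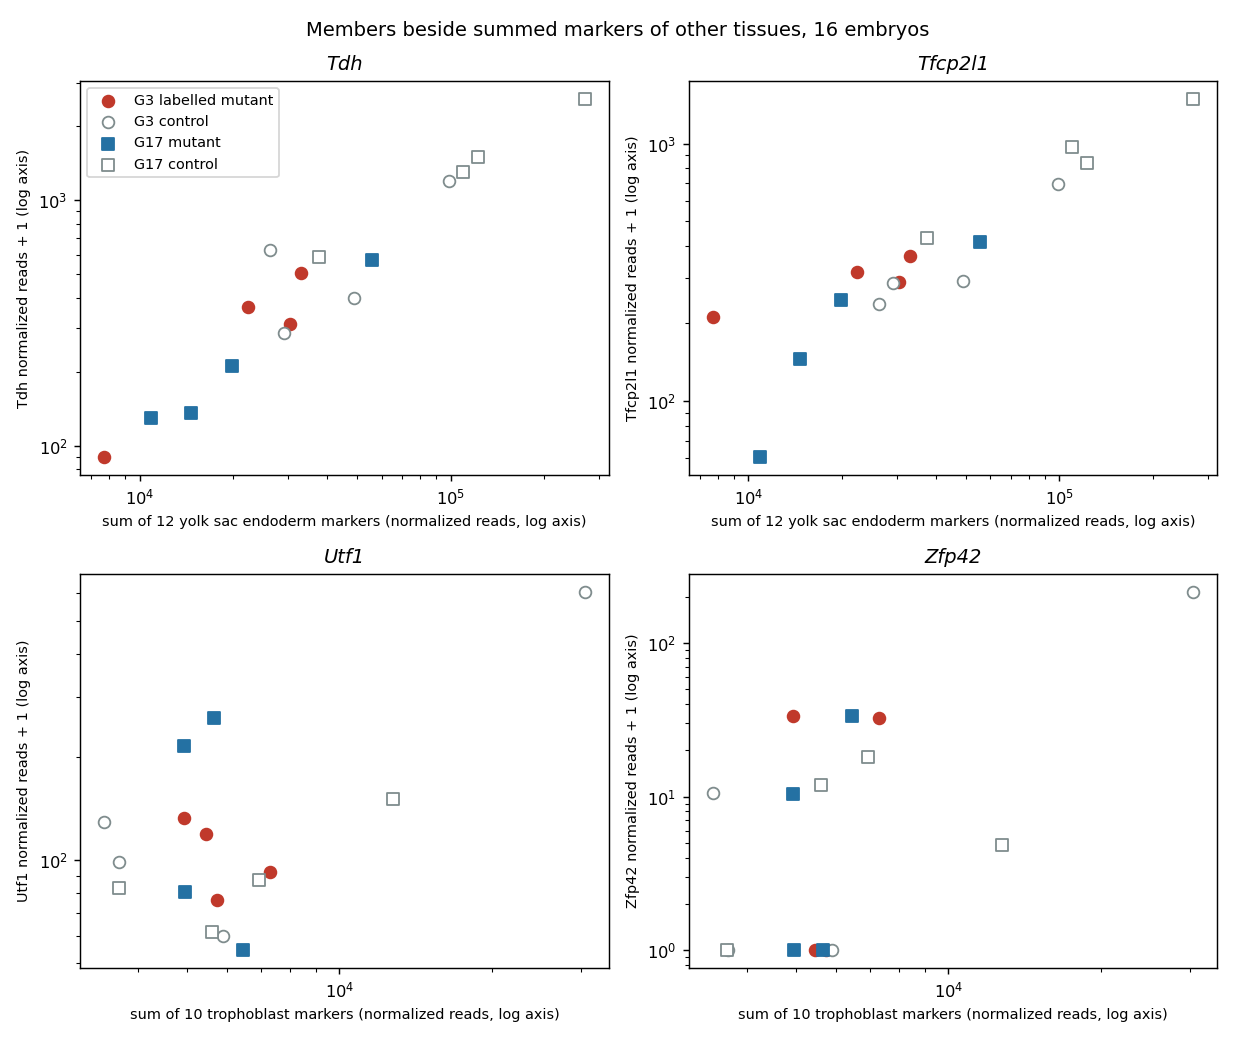
Tdh and Tfcp2l1 against the sum of 12 yolk sac endoderm markers (upper panels) and Utf1 and Zfp42 against the sum of 10 trophoblast markers (lower panels), in normalized reads on log axes, 1 point per embryo and with 1 added on the vertical axes. G17 control 29 is at the top right of both upper panels and G3 control 18, at a trophoblast marker sum of 30473, at the top right of both lower panels. Hand1 is the largest part of the trophoblast marker sum in the group means.

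The LIN28 genes changed by small amounts from high levels. Lin28a, the paralog most abundant here, held 29155 (embryo 33), 31106 (36), 34269.9 (41) and 31564 (42) normalized reads in G17 mutants, against 38863 (20), 36149.5 (29), 36079 (35) and 38102 (37) in G17 controls, without overlap. In G3 it held 32166 to 37624 in embryos labelled mutant and 33544 to 41065 in controls, with overlap. The log2 fold change was -0.24 ± 0.06 in G17 (limma adjusted p = 0.0412), -0.12 ± 0.07 in G3 (limma adjusted p = 0.381) and -0.18 ± 0.05 in common (limma adjusted p = 0.0188). Lin28b had the other pattern. It held 5479 (embryo 23), 5288 (29), 5505 (30) and 5208 (31) in G3 embryos labelled mutant, against 7048 (16), 5823 (18), 6933 (20) and 6299 (21) in G3 controls, without overlap. In G17 it held 5343 to 6545 in mutants and 5019.6 to 6960.4 in controls. Its fold change was -0.28 ± 0.07 in G3 (limma adjusted p = 0.0377), -0.01 ± 0.10 in G17 (limma adjusted p = 0.968) and -0.15 ± 0.07 in common (limma adjusted p = 0.203). Both line calls were close to the threshold. The Lin28a call in G17 ended in 6 of 8 fits without 1 embryo (-0.29 to -0.21), and the Lin28b call in G3 ended in 7 of 8 (-0.33 to -0.24) and was kept without control 18.

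Counted together, 2 genes rose and 1 fell of the 9 tested in G3, where 2.35% of the 18025 genes tested rose and 1.63% fell. In G17, 2 rose and 3 fell of 9, against 1.87% and 1.16% of 17706 genes. In the common effect 3 rose and 3 fell of 10, against 5.01% and 4.39% of 20010 genes. In G3, 2 genes were higher in every embryo labelled mutant than in every control and 1 lower, against 5.91% and 5.61% of all genes tested. In G17, 3 were higher (Pou5f1, Nanog, Mixl1) and 3 lower without overlap, against 5.39% and 4.54%. Nanog and Mixl1 passed the filter in G17 through the mutants alone, so both had to be higher there. The 10 genes were also chosen with earlier results of these data known, so these counts carry no test of the set. Mutant over control, the median log2 fold change of the tested members was -0.12 in G3 and 0.46 in G17, against 0.01 and -0.01 over all genes.

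The difference between the lines, as the G17 effect minus the G3 effect, passed the limma test for 0 of the 10 genes (0.01% of all genes passed). At an unadjusted limma p under 0.05 there were 3 of the 10, against 1276 of the 20010 genes tested. These 3 were Pou5f1 (1.72 ± 0.51, limma adjusted p = 0.651), Tfcp2l1 (-2.06 ± 0.66, limma adjusted p = 0.682) and Lin28b (0.26 ± 0.12, limma adjusted p = 0.78). Of the set, edgeR, DESeq2 and limma-voom each called 0. Between the control embryos, G17 minus G3 with size factors computed jointly, limma called 0 of 7 tested genes and 0% of all genes. There too 3 had an unadjusted limma p under 0.05, against 1251 of the 17824 genes tested. They were Pou5f1 (-0.96 ± 0.29), Tdh (1.27 ± 0.45) and Tfcp2l1 (1.30 ± 0.38), each with a limma adjusted p of 0.702. edgeR and limma-voom called 0 there, and DESeq2 gave an adjusted p for Lin28a and Lin28b alone of the set and called neither, while it called 47 of all genes. A call in 1 line and not in the other was therefore not shown to be a difference between the alleles.

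**Figure D3:**
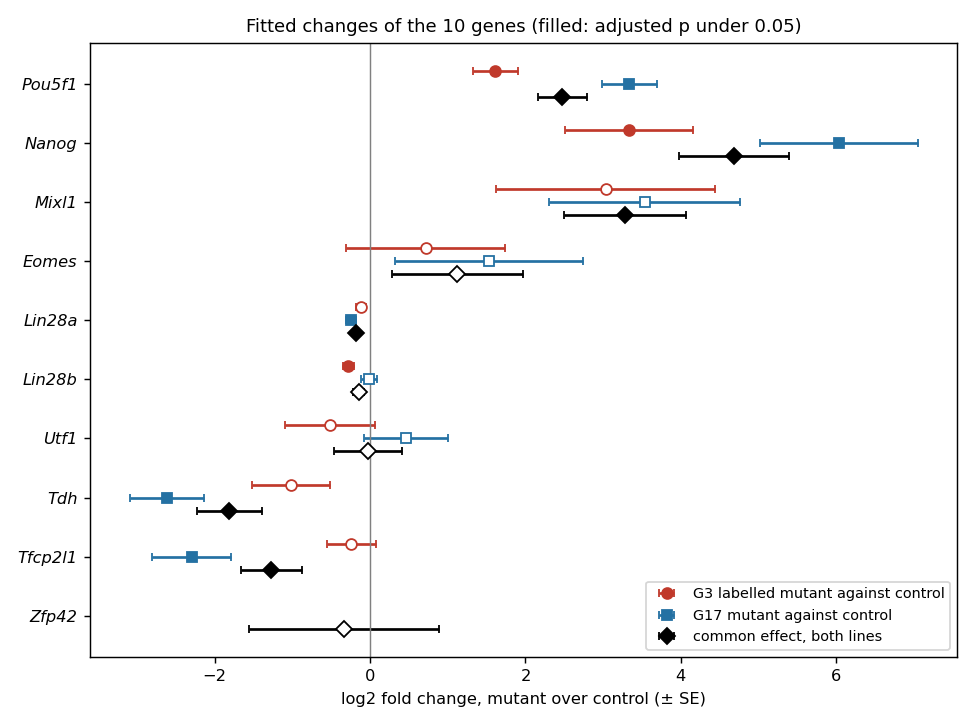
Log2 fold change of mutant over control with its SE (horizontal axis) for each of the 10 genes in G3, in G17 and as the common effect of both lines, filled where the limma adjusted p was under 0.05. Pou5f1 and Nanog are filled on the right in all 3 fits, and Tdh is filled on the left in G17 and in common. Zfp42 was tested in the common effect alone.

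Other genes of the pluripotency network moved in part. For this list and those below, the shares of all genes tested that rose and fell were 2.35% and 1.63% in G3. They were 1.87% and 1.16% in G17, and 5.01% and 4.39% in common. Of 21 genes listed, 16 were tested in G3, of which 3 rose (Nr0b1, Nr5a2, Sall4) and 1 fell (Fgf4), and 14 in G17, of which 2 rose (Nr0b1, Sall4) and 0 fell. The median log2 fold change was 0.17 in G3 and 0.36 in G17, against 0.01 and -0.01 over all genes. Nr0b1 (DAX1), an orphan nuclear receptor of stem cells, was listed at 0 in all 4 G3 controls and in G17 controls 20, 29 and 37. It held 26.9 to 86.4 in G3 embryos labelled mutant, and 36.5 to 140.5 in G17 mutants against 8.52 in G17 control 35. No control reached the filter's 10 normalized reads, so in both lines and in common the gene was tested through the mutants alone, and its calls had to go in this direction. Sall4, a zinc finger factor of the same network, rose by 0.29 ± 0.07 in G3 (limma adjusted p = 0.0336) and 0.36 ± 0.08 in G17 (limma adjusted p = 0.04). Nr5a2, a nuclear receptor that binds the Pou5f1 promoter in stem cells, rose by 2.25 ± 0.48 in G3 (limma adjusted p = 0.0186) and was 1.16 ± 0.43 in G17 (limma adjusted p = 0.191). Fgf4, a growth factor gene known as a target of SOX2 and POU5F1 in stem cells, fell by 4.16 on the log2 scale in G3 (limma adjusted p = 0.0185). Sox2 was not called (-0.17 ± 0.18 in G3 and 0.36 ± 0.20 in G17, limma adjusted p = 0.693 and 0.41). With the yolk sac marker level as a term, 0 genes of the list rose in either line and 0 fell. Without 1 embryo the Nr0b1 call ended in 4 of 8 fits in each line, the Sall4 call in 5 of 8 in each line, the Nr5a2 call in 3 of 8 and the Fgf4 call in 2 of 8.

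In the epiblast and Nodal list of 14 genes, 1 rose (Tdgf1) and 1 fell (Foxd3) of 14 tested in G3, and 1 rose (Dnmt3a) of 12 in G17. In common 4 rose (Dnmt3a, Foxh1, Otx2, Tdgf1) and 1 fell (Foxd3). Tdgf1 (Cripto), the Nodal co-receptor, held 1817 to 1964 normalized reads in G3 embryos labelled mutant and 858 to 1213 in G3 controls (0.94 ± 0.11, limma adjusted p = 0.000573). It held 1776 to 2331 in G17 mutants and 195 to 1055 in G17 controls (1.65 ± 0.41, limma adjusted p = 0.0502). The DNA methyltransferase gene Dnmt3a rose by 0.61 ± 0.07 in G17 (limma adjusted p = 0.000975) and the homeobox gene Otx2 by 0.92 ± 0.26 in common (limma adjusted p = 0.0274). Foxd3, a forkhead factor of epiblast and neural crest, was listed at 0 in all G17 mutants and in G3 embryos 29 and 31 labelled mutant, against 46.5 to 406 in G3 controls and 3.83 to 446 in G17 controls. Its G3 call (-4.90 ± 1.21, limma adjusted p = 0.0399) was not made by edgeR, DESeq2 or limma-voom, and ended in 6 of 8 fits without 1 embryo. With the yolk sac term Tdgf1 kept its G3 call and Dnmt3a its G17 and common calls, whereas Otx2 was not called in common (0.64, limma adjusted p = 0.355).

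Of 18 further genes of the primitive streak and nascent mesoderm, 0 rose in any fit. None fell in G3 of 13 tested, 1 fell in G17 (Sp5) of 13, and 3 fell in common (Cdx1, Sp5, Wnt3a) of 15. Sp5, a WNT target gene, held 302 to 479.8 normalized reads in G17 mutants and 694 to 859 in G17 controls (-0.96 ± 0.19, limma adjusted p = 0.0147). The homeobox gene Cdx1 was -1.55 ± 0.38 in common (limma adjusted p = 0.011) and Wnt3a, a ligand of the caudal streak, -2.51 ± 0.79 (limma adjusted p = 0.0498). The T-box gene T (Brachyury) was not called (0.31 ± 0.21 in G3 and 1.22 ± 0.46 in G17, limma adjusted p = 0.476 and 0.2). The common calls of Sp5 and Wnt3a ended in 13 and 12 of 16 fits without 1 embryo, and with the yolk sac term 0 genes of this list fell. Mixl1 was called higher in common by limma but not by edgeR, and none of these 18 genes was called higher. Of the 15 tested in common, 8 had a positive fold change (median log2 0.03). In G3 it was 5 of 13 (median -0.06) and in G17 4 of 13 (median -0.44), against medians of 0.01 and -0.01 over all genes. In G17, 5 of the 13 were lower in every mutant than in every control, against 4.54% of all genes tested.

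**Figure D4:**
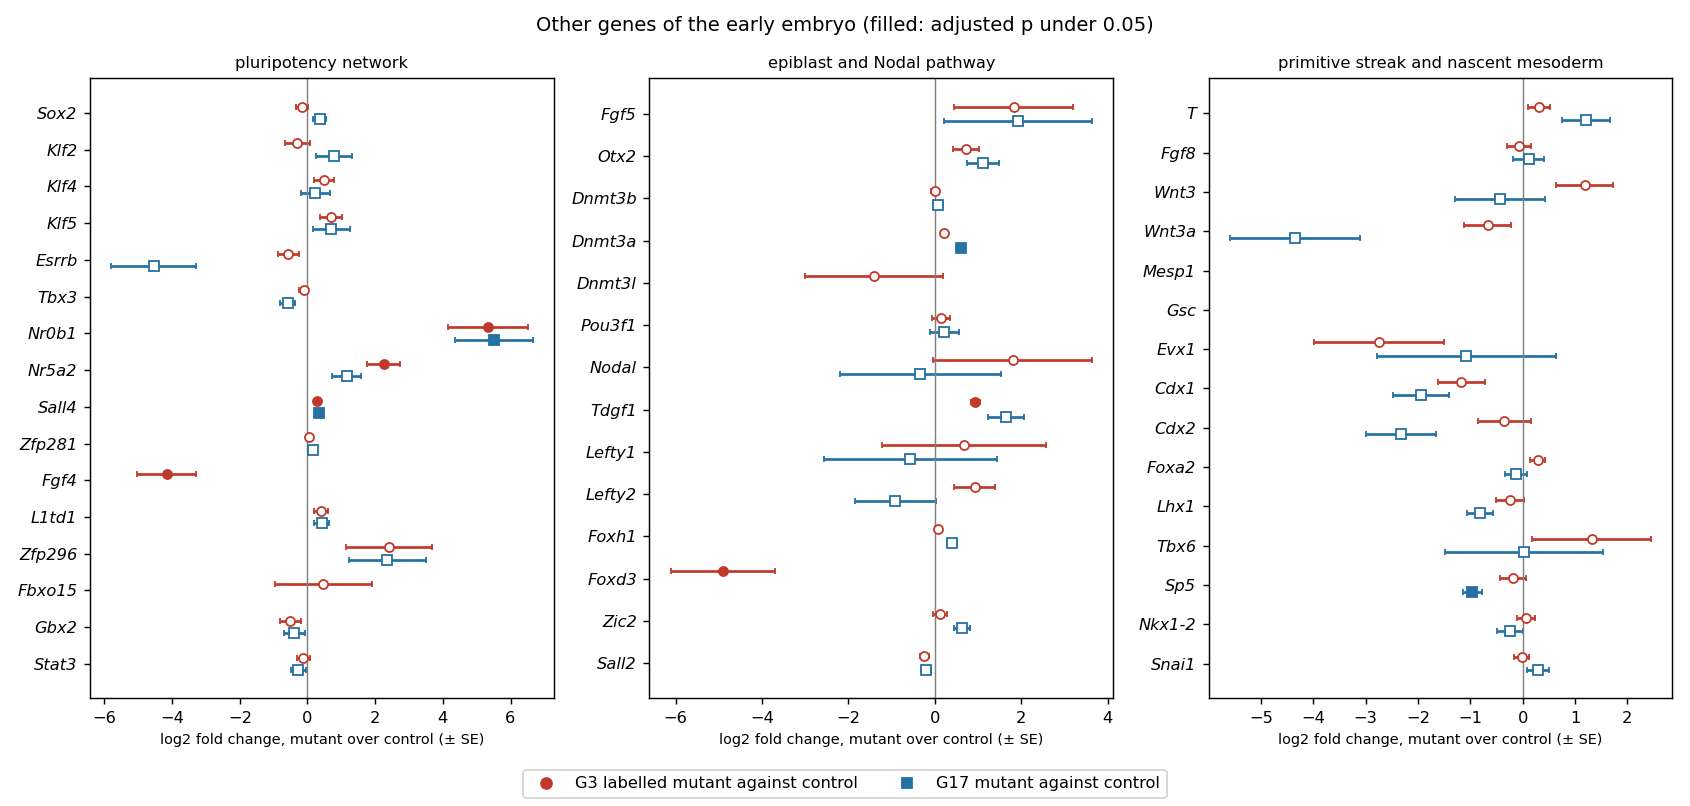
Log2 fold change of mutant over control with its SE (horizontal axes) in G3 and in G17 for the tested genes of the pluripotency network, the epiblast and Nodal pathway and the primitive streak, filled where the limma adjusted p was under 0.05. Nr0b1 and Sall4 are filled on the right in both lines, and Sp5 is the single filled gene of the streak panel.

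Germ cell markers were also read, since Pou5f1 and Nanog stay on in primordial germ cells. The sum of the 12 listed was 10326 to 11399 normalized reads in G3 embryos labelled mutant and 8928 to 11881 in G3 controls, and 8374 to 11217 in G17 mutants and 8189 to 9261 in G17 controls, so it overlapped in both lines. In G3 embryos labelled mutant, Kit averaged 3413 and Ifitm1 3196 of a mean sum of 10968, and Nanos3 20.8. The overlap of the sum thus says little about the low markers. Of 9 tested in G3, 1 rose (Kit), and of 8 in G17, 1 rose (Kit) and 1 fell (Ifitm3). Kit, the receptor of stem cell factor, which many other cells also carry, rose by 0.45 ± 0.10 in G3 (limma adjusted p = 0.0225) and 0.51 ± 0.10 in G17 (limma adjusted p = 0.0158). Each line's Kit call ended in 3 of 8 fits without 1 embryo and with the yolk sac term, with which the common call held (0.46, limma adjusted p = 0.00444). Ifitm3 fell by 1.24 on the log2 scale in G17 (limma adjusted p = 0.0186). In common Ifitm1 also rose (0.44 ± 0.10, limma adjusted p = 0.00757). The more restricted Nanos3 held 7.22 (embryo 23), 39.4 (29), 17.9 (30) and 18.6 (31) normalized reads in G3 embryos labelled mutant, against 15.96 in G3 control 21 and 0 in the other G3 controls. It held 25.9 (33) and 46.4 (36) in G17 mutants and 0 in mutants 41 and 42, against 3.65 in G17 control 35 and 0 in the other G17 controls. The groups overlapped in both lines, and Nanos3 was not called in G3 (3.21 ± 1.39, limma adjusted p = 0.243) or in common (2.62 ± 0.97, limma adjusted p = 0.101) and was not tested in G17. Dppa3, Prdm14 and Dazl were listed at 0 in most embryos. Dppa3 had 13.1 and 29.5 in G3 embryos 29 and 30 labelled mutant and 16.3 in G17 mutant 42, with 0 in all 8 controls, while Prdm14 and Dazl reached at most 26.1 in any embryo.

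Around the LIN28 proteins, the list of 15 partners and let-7 targets held 0 genes that rose. In G3 1 fell (Hmga2), in G17 0, and in common 5 fell (Arid3a, Hmga1, Hmga2, Igf2bp2, Igf2bp3), all 15 being tested. Over all genes 1.63% fell in G3, 1.16% in G17 and 4.39% in common. Those changes were of the size seen for Lin28a, and the Hmga2 call in G3 ended in 5 of 8 fits without 1 embryo. Igf2bp2, an RNA-binding protein gene that let-7 targets, was -0.15 ± 0.03 in common (limma adjusted p = 0.00786), and Igf2bp3 -0.19 ± 0.05 (limma adjusted p = 0.00925). The chromatin protein gene Hmga1 was -0.18 ± 0.04 (limma adjusted p = 0.0113) and Arid3a, a DNA-binding factor gene, -0.19 ± 0.05 (limma adjusted p = 0.0133).

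Around TDH, of the 12 tested genes of threonine, serine and glycine metabolism, 2 fell in G3 (Gldc, Phgdh), 3 in G17 (Gldc, Phgdh, Psat1) and 5 in common (Amt, Gcsh, Gldc, Phgdh, Psat1), and 0 rose. Gldc, the decarboxylase of the glycine cleavage system, held 2910.3 to 3678 normalized reads in G3 embryos labelled mutant and 4021 to 6762 in G3 controls (-0.66 ± 0.13, limma adjusted p = 0.0135). It held 2081 to 3500.0 in G17 mutants and 4622 to 10776 in G17 controls (-1.29 ± 0.22, limma adjusted p = 0.00768). Phgdh, which starts serine synthesis, fell by 0.35 on the log2 scale in G3 (limma adjusted p = 0.0155) and by 0.46 in G17 (limma adjusted p = 0.0191). The Phgdh call ended without 1 embryo in 1 of 8 fits in G3 and 4 of 8 in G17, the Psat1 call in G17 in 6 of 8, and the Gldc calls in 0. With the yolk sac marker level as a term, 0 of the list fell in either line and 2 in common. G17 control 29, highest in the yolk sac markers, was also highest in Gldc and Phgdh.

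Among 14195 genes tested in both lines with a mean of at least 50, those most like Pou5f1 over the 16 embryos included Pim2 (Pearson r = 0.962), Fabp7 (0.951), Mbp (0.946) and Srgap3 (0.941), on log2 values centred on the line mean. The points share the genotype contrast, so r describes these embryos and carries no test. Pim2, a serine/threonine kinase gene, averaged 2404 ± 864 in G3 embryos labelled mutant and 1009 ± 299 in G3 controls, and 3016 ± 1273 in G17 mutants and 725 ± 89.2 in G17 controls (SD, n = 4 each). For Tdh the closest genes were Slc7a8 (0.974), Afp (0.966), Car7 (0.963), Apoa1 (0.959) and Rbp4 (0.959), of which Afp, Apoa1 and Rbp4 belong to the yolk sac marker list. For Tfcp2l1 they included Fga (0.953), Pls1 (0.948), Maf (0.948) and Pdzk1 (0.94).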

How the data were processed

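The submitters' processing notes name HISAT2, featureCounts, Subread and DESeq2 and the build GRCm38 for the paired-end reads of 100 bases. Tool versions, the strand setting and how reads shared by similar genes were counted were not given in the sources used here. For each line the authors deposited 1 table of 48526 genes, in which each embryo's column holds a normalized signal, reads divided by a DESeq2 size factor, together with the authors' group means, p-values and adjusted p-values and, per group, counts of embryos flagged as expressed, as the file headers and values show. Times its size factor, at least 99.97% of each embryo's deposited signal values came out whole (tolerance 0.01 reads), which gave back the reads.

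Groups came from the labels, which give no litter or batch. The main test was limma 3.58.1 (R 4.3.3) on log2(value + 1), its variance prior following the mean level. Genes reaching 10 normalized reads in 4 or more embryos of the fit entered, with Benjamini-Hochberg adjustment over all genes tested and a threshold of 0.05. On this scale the fold changes of low genes depend on the pseudocount and can be understated or overstated. Nanog in G17 was 6.03 here and 7.035 under DESeq2, and Mixl1 in G3 was 3.03 here and 1.87 under edgeR. The tables were normalized separately, so levels set across lines are approximate. The common effect and the difference between lines used all 16 embryos with the line as a term, and the control embryos were compared on recovered reads. Single values were compared by an exact permutation test over 70 arrangements. RPKM used the union of exons in GENCODE and recovered library totals. The fit was tested on simulated data, with the same spread setting for all genes. Genes as low in controls as Nanog and Mixl1 were not among those changed there, so the simulation does not cover them. Alternatives were TMM factors, edgeR 4.0.16, DESeq2 1.42.0, limma-voom, other filters and pseudocounts, 1 fit of 16, the authors' table and each embryo left out; the yolk sac marker term was added after seeing the data.

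The 10 genes and the lists were chosen with earlier results of these data known. Named list genes are those called, at most 4 per list by the p of the common effect. Likeness was ranked for Pou5f1. Fgf4, Foxh1, Hmga2, Amt, Sox2, T, Dppa3, Nanos3, Prdm14, Dazl, Hand1, Plet1 and Prl3d1, and the genes like Tdh and Tfcp2l1, were named after their values were seen. A result for a small number of genes is not reported here, and such genes were left out of the list counts and the genes named by likeness.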

Additional observations from a re-analysis of the deposited data

Results flagged for a closer look

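In 6 of 56 groups of 4 embryos examined, 1 embryo lay far from the other 3, its gap taking more of the group's range than Dixon's 95% limit, which chance gives in about 1 of 20 groups. All 6 are G3 control groups. G3 control 18 was the high embryo for Utf1 (606 normalized reads), for Zfp42 (215) and for the summed trophoblast markers (30473). G3 control 21 was high for Tfcp2l1 (693), and this embryo also had the highest yolk sac marker sum of G3, 98989. G3 control 16 was low for Nanog (2.12) and was the single G3 control with reads of Mixl1 (20.2).

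The effect on Greb1l itself differed between the lines, with a log2 difference of -2.11 for the G17 effect minus the G3 effect (limma adjusted p = 9.24e-06). Greb1l was higher in all 4 G3 embryos labelled mutant than in the G3 controls and lower in all 4 G17 mutants than in the G17 controls.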

How the results depend on the processing

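Pou5f1 kept its direction and its call in G3, in G17 and in common under each alternative. The number of genes of the set that rose in G3, 2 in the main fit, was 1 under limma-voom, without a filter, with at least 5 CPM, with a pseudocount of 0.1, with the yolk sac term and in 1 fit of all 16 embryos, each time through Nanog, and the number that fell, 1, was 0 without a filter, with the yolk sac term and in the fit of 16. In G17 the number that rose, 2, was 1 under limma-voom and with the yolk sac term, and the number that fell, 3, was 1 with that term, as it was in common (3 in the main fit). Lin28a lost its G17 call under edgeR (adjusted p = 0.0553), without a filter (limma adjusted p = 0.0821) and with a pseudocount of 0.1 (0.0524), and its common call with the yolk sac term (0.0758). Tfcp2l1 lost its G17 call in the authors' deposited table (0.0563) and its common call under edgeR (0.0605), without a filter (0.0768) and with a pseudocount of 0.1 (0.0578), and Mixl1 its common call with the yolk sac term (0.107). Without 1 embryo, 1 to 2 rose and 0 to 1 fell in G3, and 2 rose and 1 to 2 fell in G17. In common 3 rose and 2 to 3 fell. With the yolk sac term Lin28b passed in common (-0.30, limma adjusted p = 0.0215), and the common effects of Tfcp2l1 (0.0248), Fga (0.0507) and the term's own markers Ttr (0.00511), Rbp4 (0.0242), Apoa4 (0.189) and Amn (0.0987) turned positive. The cause of the other lost calls was not tested. In common, DESeq2 gave Mixl1 no adjusted p. Over all genes, without 1 embryo 208 to 552 rose and 124 to 325 fell in G3, and 163 to 381 rose and 48 to 285 fell in G17, against 424, 293, 331 and 206 in the main fits. On the recovered reads edgeR gave 373, 234, 313 and 163, and DESeq2 gave 688, 593, 565 and 507. In G17 1 fit of 16 gave 515 and 480, and 334 fell in the authors' deposited table. With the yolk sac term the counts were 202, 95, 133 and 36, and in common 551 rose and 361 fell. No scaling moved the median of all genes by over 0.1 on the log2 scale. No paired analysis was possible because the labels do not give the litter of an embryo. At these depths Mixl1, Eomes, Zfp42 and Nanog in controls rest on few reads.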
